A study of Mus musculus with 8 samples.

Results

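The YAP target genes are 10 genes that are widely read as markers of the transcriptional coactivators YAP and TAZ. They were taken by name from the deposited table: Ccn1 (listed as Cyr61), Ccn2 (listed as Ctgf), F3, Ankrd1, Amotl2, Amotl1, Lats2, Ptpn14, Axl and Crim1, 10 of 27110 listed genes. All 10 were found and had at least 1 read in every library. Total RNA was sequenced from 8 mouse livers labelled week 7 and not treated. The 4 LKO libraries (replicates 3, 4, 12 and 13, female) carry a liver-restricted deletion of Pkd1l1, a polycystin-family gene, and the 4 Fl/Fl libraries (replicates 5, 7 and 9, female, and 10, male) are their floxed controls. The labels do not name the Cre line, its promoter, the mouse strain or the litters.

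YAP and TAZ sit at the end of the Hippo pathway. The kinases Stk3 and Stk4 activate the kinases Lats1 and Lats2, which phosphorylate YAP and TAZ and so keep them out of the nucleus. When the kinases are quiet, YAP and TAZ bind TEAD transcription factors on DNA and switch on target genes, some of which feed back to restrain the pathway. In the liver the pathway is known for its control of organ size and of the bile duct cell fate. Several of its targets are also switched on by serum and by the AP-1 factors.

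The targets did not behave as a group. Ccn1, Ccn2, F3, Ankrd1 and Amotl2 were lower in every LKO library than in every female Fl/Fl library, by 2.23-fold to 4.69-fold among the 4 of them that could be tested. Amotl1, Lats2, Ptpn14, Axl and Crim1 overlapped between the genotypes and differed by at most 1.09-fold in the fit. Only F3, the cell-surface starter of blood coagulation, passed the test, with a fold change of LKO over female Fl/Fl of 0.394 (edgeR adjusted p = 0.0175). Of the 9 targets with enough reads to test, 1 was lower, 0 were higher and 8 did not pass. An unadjusted p under 0.05 was found for 4 of the 9 and for 16.1% of all genes tested. Among all 16420 genes tested, 0.396% were called lower and 1.02% higher (1.41% in either direction), and 6.22% had every LKO value below every female Fl/Fl value, against 4 of the 9 targets. The calls over all genes, 65 lower and 167 higher, turned on single livers. Leaving out Fl/Fl 9 raised them to 251 lower and 476 higher, and leaving out Fl/Fl 5 left 2 in each direction. Omitting Fl/Fl 7 gave 12 lower and 25 higher, LKO 4 gave 11 and 36, LKO 12 gave 30 and 111, and LKO 13 gave 14 and 44. The median log2 fold change of the 9 targets was -0.12, beside -0.0032 over all genes tested.

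Values are CPM, read counts scaled to a common library total with TMM factors, and group values are mean ± SD with n = 3 female Fl/Fl and n = 4 LKO libraries. Fold changes set LKO against female Fl/Fl in a fit over all 8 libraries with a term for sex, which takes up the male library. Libraries held 71491723 to 76622375 reads, and 3 reads made 0.0385 to 0.0428 CPM. Pkd1l1 itself had 0 to 2 reads in each library, 2 in all Fl/Fl and 2 in all LKO libraries together, too few to check the genotype labels. These are bulk livers, in which fewer cells of a type and less RNA per cell cannot be told apart.

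**Figure D1:**
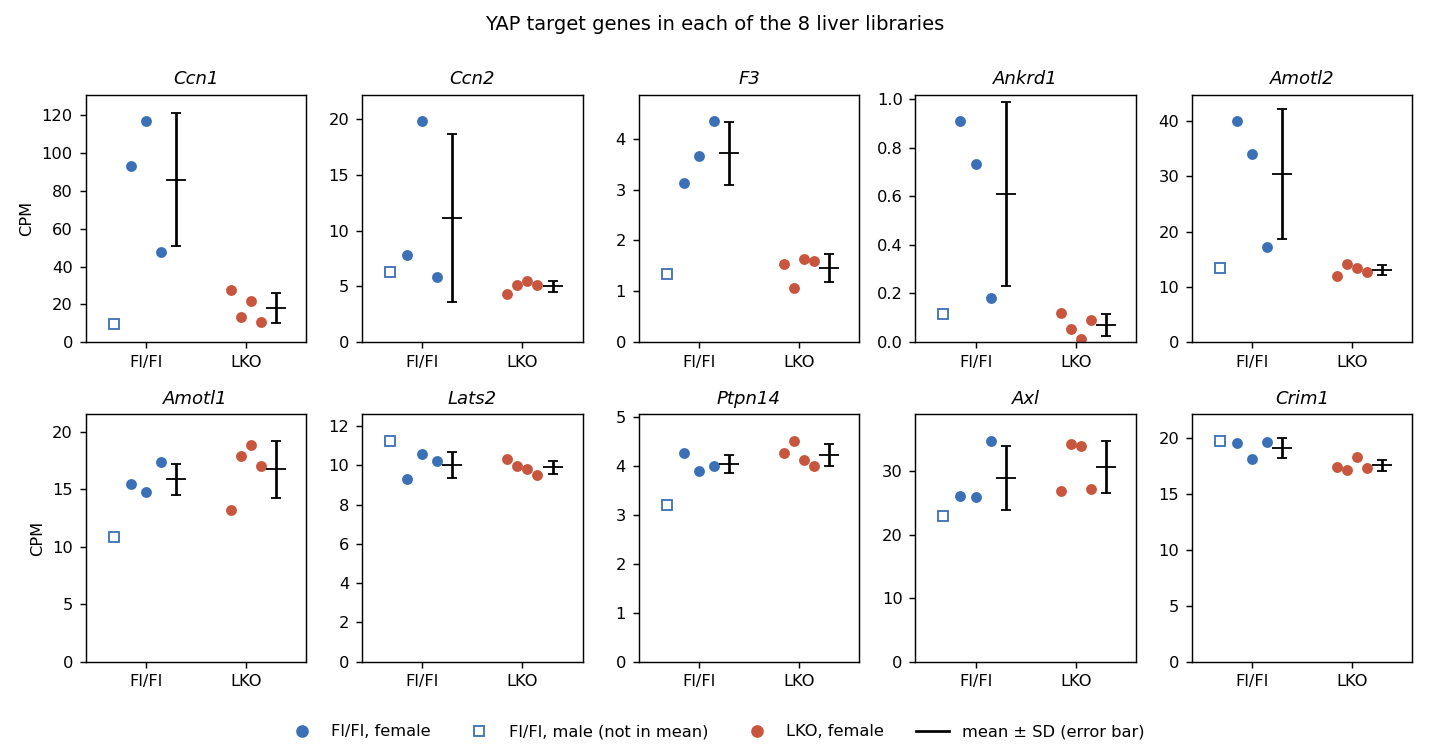
Level of each of the 10 YAP target genes in CPM (y axis, from 0), by genotype (x axis), with 1 point per library; filled circles are female libraries, the open square is the male Fl/Fl library, and bars show the mean ± SD of the female libraries of a genotype. In the upper row every LKO point lies below every female Fl/Fl point, and in the lower row the genotypes overlap.

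Ccn1 encodes a secreted matrix-associated protein that binds integrins. It measured 93.2, 117 and 47.5 CPM in the female Fl/Fl livers 5, 7 and 9 and 9.58 CPM in the male, against 27.7, 13.2, 21.9 and 10.5 CPM in the LKO livers 3, 4, 12 and 13. The male library was thus below every LKO library, and the highest female Fl/Fl library held 12.2 times its level. The female means were 85.8 ± 35.2 CPM in Fl/Fl and 18.3 ± 7.92 CPM in LKO (log2 fold change -2.23 ± 0.45 SE, 95% interval -3.33 to -1.12, edgeR adjusted p = 0.0919). Ccn1 passed without Fl/Fl 9 (adjusted p = 0.0471), with DESeq2 (0.000156) and with limma voom (0.0243). Its log2 fold change was -1.38 when both Fl/Fl 5 and 7 were left out (edgeR adjusted p = 0.506). The gene lies on the minus strand of chromosome 3 (ENSMUSG00000028195, 145646976 to 145649981, mm10). Its RefSeq promoter (GRCm38.p6, chr3:145649936-145650235, minus strand, from 250 bases before to 50 after the gene's start) is shown because Ccn1 is the most abundant target and spread most among the tested ones. The capitals mark the TEAD word GGAATG, here in its reverse form CATTCC, whose first base lies 103 bases before the start:
Ccn1: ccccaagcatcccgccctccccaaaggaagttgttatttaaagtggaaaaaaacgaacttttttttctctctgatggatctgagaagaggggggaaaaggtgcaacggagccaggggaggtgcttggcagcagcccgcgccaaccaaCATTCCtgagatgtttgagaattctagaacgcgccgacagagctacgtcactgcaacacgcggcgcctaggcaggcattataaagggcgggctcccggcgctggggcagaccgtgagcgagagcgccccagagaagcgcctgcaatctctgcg

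Ccn2, the connective tissue growth factor, is a relative of Ccn1 that promotes matrix deposition. It measured 7.82, 19.8 and 5.87 CPM in the female Fl/Fl livers 5, 7 and 9 and 6.33 CPM in the male, against 4.35, 5.08, 5.46 and 5.12 CPM in the LKO livers 3, 4, 12 and 13. All 4 Fl/Fl libraries, the male one included, were above all 4 LKO libraries, but Fl/Fl 9 exceeded LKO 12 by little and Fl/Fl 7 stood apart. The log2 fold change was -1.16 ± 0.39 SE (95% interval -2.08 to -0.23, edgeR adjusted p = 0.217). Without Fl/Fl 7 it was -0.46 (adjusted p = 0.327). Ccn2 (ENSMUSG00000019997, chromosome 10, 24595442 to 24598683, plus strand) is overlapped on the other strand by Gm15270, whose 34 reads over the 8 libraries came to 0.752% of those of Ccn2. Ptpn14 and Lats2 are overlapped likewise by features with 0.414% to 0.562% of their reads, and no source gives the strand setting.

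F3, or tissue factor, binds coagulation factor VII on the cell surface. It measured 3.12, 3.67 and 4.34 CPM in the female Fl/Fl livers 5, 7 and 9 and 1.34 CPM in the male, against 1.53, 1.06, 1.64 and 1.6 CPM in the LKO livers 3, 4, 12 and 13. The female groups were apart, with Fl/Fl 9 the highest library, while the male library lay within the LKO range. F3 fell by 1.34 on the log2 scale (± 0.21 SE, 95% interval -1.82 to -0.87, edgeR adjusted p = 0.0175). The call was lost without Fl/Fl 5 (adjusted p = 0.0702), Fl/Fl 7 (0.0707), LKO 4 (0.0556) or LKO 13 (0.0569), and with no sex term (log2 fold change -1.09, adjusted p = 0.451), while the log2 fold change without any single library stayed between -1.45 and -1.22. F3 lies on the plus strand of chromosome 3 (ENSMUSG00000028128, 121723537 to 121735048). Its RefSeq promoter (chr3:121723287-121723586, plus strand) is shown because F3 was the target that passed. It holds no TEAD word. The capitals mark the AP-1 word TGANTCA, which the factors Fos and Jun bind and which begins 146 and 135 bases before the start:
F3: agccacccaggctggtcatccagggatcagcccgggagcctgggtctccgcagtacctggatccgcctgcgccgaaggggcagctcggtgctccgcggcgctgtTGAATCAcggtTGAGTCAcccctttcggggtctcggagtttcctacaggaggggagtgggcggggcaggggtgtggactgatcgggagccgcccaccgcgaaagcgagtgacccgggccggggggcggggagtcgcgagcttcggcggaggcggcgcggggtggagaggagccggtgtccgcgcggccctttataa

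Ankrd1 encodes an ankyrin repeat protein of the nucleus and of the muscle sarcomere and is among the most used YAP readouts. It was nearly silent, with 68, 57 and 14 reads in Fl/Fl 5, 7 and 9, 9, 4, 1 and 7 reads in LKO 3, 4, 12 and 13, and 8 reads in Fl/Fl 10. The female groups did not overlap, but LKO 3 and Fl/Fl 9 differed by 5 reads and the male library lay within the LKO range. Ankrd1 missed the filter on low counts. Its level was 0.607 ± 0.378 CPM in female Fl/Fl and 0.0698 ± 0.0457 CPM in LKO, a difference of -0.537 CPM (p = 0.0286 in a two-sided exact permutation test of the 7 females, the smallest that its 35 splits allow). With all 8 libraries the difference was -0.414 CPM (exact permutation p = 0.0571), and without Fl/Fl 5 and 7 it was -0.113 CPM (5 splits, exact permutation p = 0.2, the smallest possible there). With no filter beyond 1 read, edgeR gave Ankrd1 a log2 fold change of -3.09 (adjusted p = 0.00500). The 7 female libraries alone gave -3.09 (edgeR adjusted p = 0.0552). There the gene passed the filter only through the Fl/Fl livers, in which it was high, so that p-value is no separate evidence. Its RefSeq promoter (chr19:36119795-36120094, minus strand, gene ENSMUSG00000024803 at 36111965 to 36119844) is shown because it holds the TEAD word more than once, at 210 and 123 bases before the start:
Ankrd1: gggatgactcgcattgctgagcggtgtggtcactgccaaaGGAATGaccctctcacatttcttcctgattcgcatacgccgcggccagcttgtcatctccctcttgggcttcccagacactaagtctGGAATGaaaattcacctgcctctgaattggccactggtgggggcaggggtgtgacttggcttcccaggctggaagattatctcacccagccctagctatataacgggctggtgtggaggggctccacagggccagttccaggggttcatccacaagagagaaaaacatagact

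Amotl2 is an angiomotin-like protein of cell junctions that holds YAP in the cytoplasm, so that it is both a target and an inhibitor of YAP. It measured 40.0, 34.1 and 17.2 CPM in the female Fl/Fl livers 5, 7 and 9 and 13.5 CPM in the male, against 12.1, 14.1, 13.4 and 12.6 CPM in the LKO livers 3, 4, 12 and 13. The LKO libraries were close together, with a coefficient of variation of 6.66% against 38.8% in female Fl/Fl, and the male library lay among them. The log2 fold change was -1.22 ± 0.25 SE (95% interval -1.81 to -0.64, edgeR adjusted p = 0.0669). Leaving out Fl/Fl 9 gave -1.51, which passed (adjusted p = 0.000193). Leaving out Fl/Fl 5 and 7 together gave -0.41 (adjusted p = 0.380), with a single female control whose spread is assumed to match the other libraries. The gene is on the plus strand of chromosome 9 (ENSMUSG00000032531, 102716672 to 102733418). Its RefSeq promoter (chr9:102717554-102717853, plus strand), whose start lies inside the deposited gene, is shown for its TEAD word 65 bases before that start:
Amotl2: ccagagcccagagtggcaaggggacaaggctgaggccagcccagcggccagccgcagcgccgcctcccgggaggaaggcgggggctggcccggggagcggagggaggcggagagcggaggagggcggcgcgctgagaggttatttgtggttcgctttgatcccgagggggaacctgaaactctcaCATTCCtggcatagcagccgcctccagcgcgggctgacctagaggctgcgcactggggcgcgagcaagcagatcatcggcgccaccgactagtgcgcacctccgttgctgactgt

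The other inhibitors among the targets showed no such difference. Amotl1, the second angiomotin-like protein (ENSMUSG00000013076, chromosome 9, 14541966 to 14645056), measured 15.4, 14.8 and 17.4 CPM in the female Fl/Fl livers 5, 7 and 9 and 10.9 CPM in the male, against 13.2, 17.9, 18.8 and 17.0 CPM in the LKO livers 3, 4, 12 and 13. Only the male library was apart, below the others. The fold change was 1.06 (95% interval 0.864 to 1.29, edgeR adjusted p = 0.826), an interval that does not reach the 0.428 fitted for Amotl2.

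Lats2, the kinase that phosphorylates YAP (ENSMUSG00000021959, chromosome 14, 57689662 to 57758388), ranged from 9.30 to 10.6 CPM in female Fl/Fl and from 9.51 to 10.3 CPM in LKO, with 11.3 CPM in Fl/Fl 10. The highest library held 1.21 times the level of the lowest. Its fold change was 0.986 (95% interval 0.838 to 1.16, edgeR adjusted p = 0.950). The phosphatase-family protein Ptpn14, which binds YAP and holds it outside the nucleus (ENSMUSG00000026604, chromosome 1, 189728268 to 189876695), ranged from 3.90 to 4.26 CPM in female Fl/Fl and from 4.0 to 4.52 CPM in LKO, with 3.21 CPM in Fl/Fl 10. Its fold change was 1.04 (95% interval 0.842 to 1.29, edgeR adjusted p = 0.884). For both genes the fold change of F3 lies outside the interval.

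The membrane proteins Axl and Crim1 were level as well. Axl, a receptor tyrosine kinase that recognises dying cells through Gas6 (ENSMUSG00000002602, chromosome 7, 25757273 to 25788705), measured 26.1, 25.9 and 34.8 CPM in the female Fl/Fl livers 5, 7 and 9 and 22.9 CPM in the male, against 27.0, 34.3, 34.1 and 27.3 CPM in the LKO livers 3, 4, 12 and 13 (fold change 1.06, 95% interval 0.861 to 1.30, edgeR adjusted p = 0.822). High and low libraries occurred in both genotypes. Crim1, a membrane protein that binds bone morphogenetic proteins (ENSMUSG00000024074, chromosome 17, 78200248 to 78376592), varied least of all targets, from 17.2 CPM in LKO 4 to 19.8 CPM in Fl/Fl 10 (fold change 0.919, 95% interval 0.806 to 1.05, edgeR adjusted p = 0.531). Its promoter (chr17:78199998-78200297, plus strand) is shown as that of a level target that also holds the TEAD word, 79 bases before the start:
Crim1: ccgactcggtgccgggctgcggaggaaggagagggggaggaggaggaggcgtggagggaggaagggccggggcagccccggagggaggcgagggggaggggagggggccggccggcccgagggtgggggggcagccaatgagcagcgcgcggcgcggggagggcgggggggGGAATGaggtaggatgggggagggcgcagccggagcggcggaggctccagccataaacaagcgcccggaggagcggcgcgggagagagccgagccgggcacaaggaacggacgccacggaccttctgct

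Promoters of 9 of the 10 targets were found in the RefSeq table (GRCm38.p6), 10 promoters in all, since Lats2 has more than 1; Ccn2 was not among them. The TEAD word GGAATG, read on both strands, was in the promoters of 7 of the 9: Ankrd1, Amotl2 and Ccn1 among the targets that were lower in LKO, and Lats2, Axl, Crim1 and Ptpn14 among those that overlapped. It was in 14.7% of all 32851 promoters of that length. The AP-1 word TGANTCA was in the F3 promoter alone, against 7.81% of all promoters, and F3 was in the 0.460% with more than 1 match. The CArG box of the serum response factor was in none of them (1.63% of all promoters). A match is a run of letters and not a measured binding site.

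Per gene length, Ccn1 had the highest mean FPKM of the targets in both genotypes, and the lowest was that of Ptpn14 in female Fl/Fl and of Ankrd1 in LKO. In female Fl/Fl the deposited FPKM values averaged 44.1 for Ccn1, 5.98 for Axl, 5.02 for Amotl2, 4.05 for Ccn2, 3.32 for Crim1, 1.64 for Amotl1, 1.53 for F3, 1.5 for Lats2, 0.357 for Ankrd1 and 0.314 for Ptpn14. In LKO the order changed. Ccn1 still led at 9.40 FPKM, but from 5.39 to 14.2 its range met that of Axl (5.58 to 7.07). Crim1 (3.04) then stood above Amotl2 (2.15), Ccn2 (1.81), Amotl1 (1.72) and Lats2 (1.47), and F3 (0.599) and Ptpn14 (0.327) above Ankrd1 (0.0411). Over the female Fl/Fl libraries, the ranges of neighbours in the order overlapped from Axl through Amotl2 and Ccn2 to Crim1. They also overlapped among Amotl1, F3 and Lats2, and between Ankrd1 and Ptpn14, so neighbours in these runs were not ordered beyond their spread. Axl (5.33 to 7.23) did lie above Crim1 (3.13 to 3.42), and Crim1 above Amotl1 (1.52 to 1.80), in each of the female Fl/Fl libraries. Over the LKO libraries, Crim1 lay above Amotl2, and F3 (0.437 to 0.671) above Ptpn14 (0.310 to 0.349), while Amotl1 overlapped with both Ccn2 and Lats2, which did not overlap with each other.

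**Figure D2:**
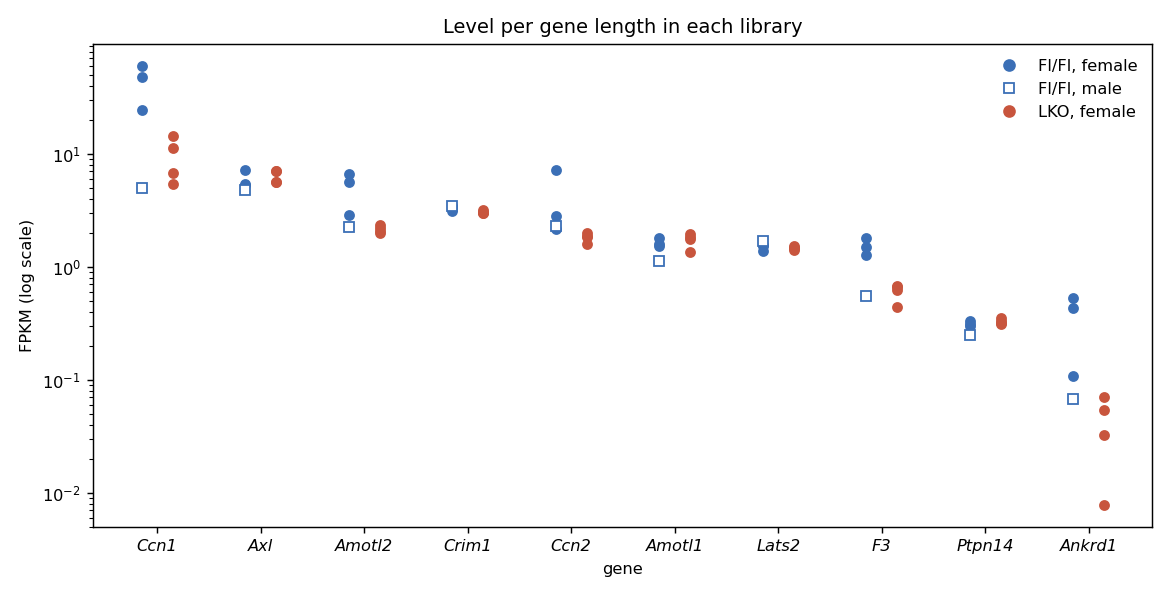
Deposited FPKM (y axis, log scale) of each YAP target gene (x axis, ordered by the mean of all 8 libraries), with 1 point per library; circles are female and open squares male, Fl/Fl on the left and LKO on the right of each gene. Ccn1 lies between 24.6 and 59.9 FPKM in female Fl/Fl and between 5.39 and 14.2 in LKO, while Crim1 and Lats2 form tight clusters.

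The targets that were lower in LKO also varied among the Fl/Fl libraries. Of the 4 libraries with the most Ccn1 RNA, 3 were female Fl/Fl and the fourth was LKO 3. The male Fl/Fl library lay within the LKO range for F3, Ankrd1 and Amotl2 and below it for Ccn1, and because it is the 1 male its sex cannot be told apart from other properties of that library. Fl/Fl 9 lay between Fl/Fl 5 and 7 and the LKO libraries for Ccn1, Ankrd1 and Amotl2 and had the highest F3 level of all. Genes of the immediate early response, which cells switch on within minutes of a stimulus, include AP-1 subunits. Their summed level followed a like order of libraries, but the single genes did not all do so. The 24 genes of that list, all detected in every library, summed to 4221, 3378 and 2432 CPM in the female Fl/Fl livers 5, 7 and 9 and 785 CPM in the male, against 1802, 1319, 1136 and 976 CPM in the LKO livers 3, 4, 12 and 13. LKO 3 had the most of both Ccn1 and the summed list among the LKO libraries, and Fl/Fl 10 the least of both among all 8. Genes of the list that were highest in Fl/Fl 5 include Fos, Jun, Egr1 and Ier2. Those highest in Fl/Fl 9 include Fosb, Fosl2, Atf3 and Myc, while Jund, Ier3, Ier5 and Klf10 were highest in an LKO library. Fosb had 16.5 CPM in Fl/Fl 7, below its 39.2 CPM in LKO 3. Of the list, Jun and Junb were called lower and 22 genes did not pass (median log2 fold change -0.80). In edgeR, 11 of the 24 had an unadjusted p under 0.05, beside 16.1% of all genes tested. Every LKO value lay below every female Fl/Fl value for 8 of the 24, beside 6.22% of all genes tested. Of all genes tested, 0.396% were called lower. For the AP-1 subunit Fos, livers Fl/Fl 5 and 7 had 298 and 264 CPM, Fl/Fl 9 had 30.7 CPM, the male had 4.78 CPM, and LKO livers ranged from 4.87 to 12.7 CPM (log2 fold change -4.63 ± 0.88 SE, edgeR adjusted p = 0.0917). Junb fell by 1.88 (± 0.14 SE, adjusted p = 0.00127), and Jun by 2.40 (± 0.35 SE, adjusted p = 0.0369). Jun lost its call without Fl/Fl 5 (adjusted p = 0.130), Fl/Fl 7 (0.130), LKO 3 (0.0640), LKO 4 (0.133), LKO 12 (0.0777) or LKO 13 (0.0680). The part of this response in the levels of the targets was not tested.

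**Figure D3:**
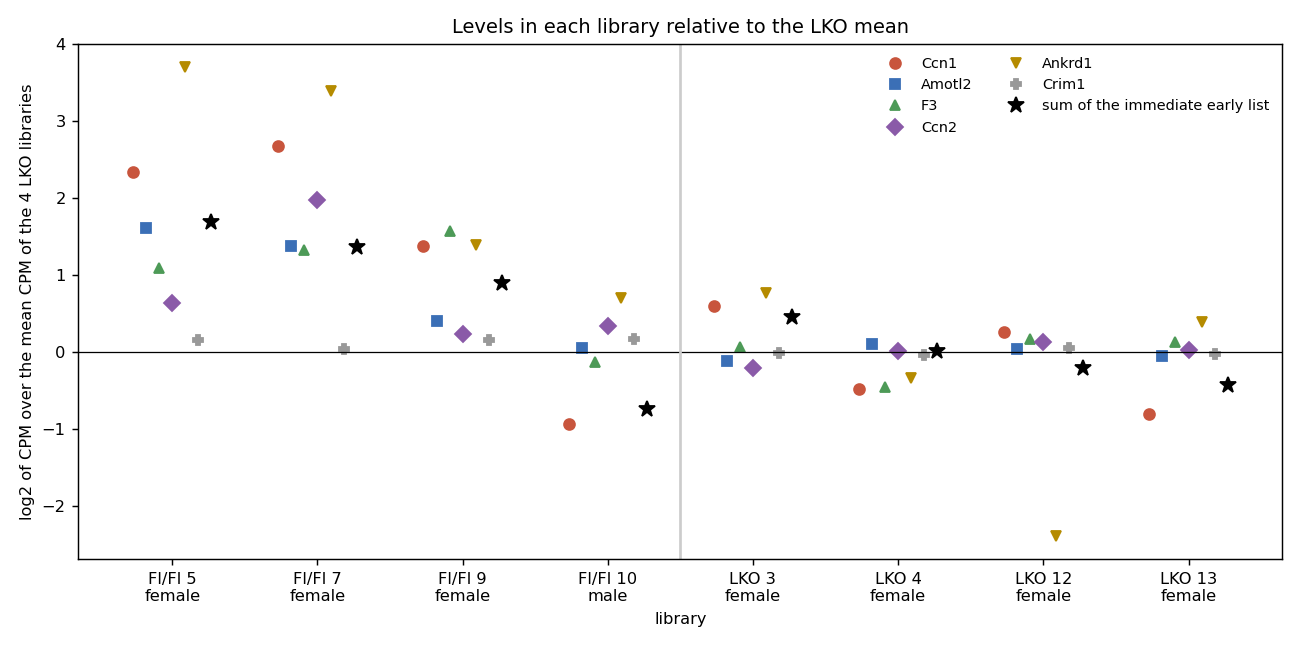
Levels of 6 YAP target genes and the summed immediate early list in each library (x axis), as log2 of CPM over the mean of the 4 LKO libraries (y axis), 1 point per library. Fl/Fl 5 and 7 stand highest for Ccn1, Amotl2, Ankrd1 and the immediate early list, Fl/Fl 9 lies between, the male Fl/Fl 10 stands near the LKO libraries for Amotl2 and F3, and Crim1 stays near 0 throughout.

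The libraries also differed in genes of the circadian clock, within both genotypes. Dbp, a transcription factor whose RNA cycles strongly over the day and which was chosen after its values were seen, had 2.46 and 3.5 CPM in livers Fl/Fl 5 and 7, like LKO 3 and 4 with 0.606 and 1.64 CPM. In livers Fl/Fl 9 and 10 it had 26.8 and 46.1 CPM, and LKO 12 and 13 had 54.4 and 42.2 CPM. Of 12 clock genes, 0 passed the edgeR test and 1 had an unadjusted p under 0.05, a smaller share than the 16.1% of all genes tested. A split within both genotypes adds to the spread in this test and lowers its power. The clock genes with the smallest p were Ciart, a clock repressor (log2 fold change 1.63 ± 0.44 SE, adjusted p = 0.148), and Nr1d1, the repressor REV-ERB alpha (-0.58 ± 0.28 SE, adjusted p = 0.370). Ciart ranged from 3.33 to 7.84 CPM in female Fl/Fl and from 8.30 to 20.2 CPM in LKO, with 26.7 CPM in the male. It passed in 2 of 18 settings. Every LKO value above every female Fl/Fl value was seen for 1 of the 12, beside 8.85% of all genes tested. The part of the clock genes in the levels of the targets was not tested.

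Few of the other genes known as YAP or TAZ targets passed. Of 23 further targets, 20 were tested, 2 fell, 0 rose and 18 did not pass, with 15 negative fold changes and a median log2 fold change of -0.13. In edgeR, 5 of the 20 had an unadjusted p under 0.05, beside 16.1% of all genes tested, of which 0.396% were called lower. Every LKO value lay below every female Fl/Fl value for 2 of the 20, beside 4 of the 9 tested targets above and 6.22% of all genes tested. Arhgap29, which restrains the small GTPase RhoA, measured 112, 101 and 94.1 CPM in the female Fl/Fl livers 5, 7 and 9 and 38.8 CPM in the male, against 54.1, 46.5, 60.3 and 56.6 CPM in the LKO livers 3, 4, 12 and 13. The female groups were well apart and the male library was below all the others. Arhgap29 fell by 0.92 on the log2 scale (± 0.11 SE, edgeR adjusted p = 0.00859; 0.0654 without Fl/Fl 5). Jag1, a Notch ligand needed for bile duct formation, measured 5.66, 6.26 and 3.86 CPM in the female Fl/Fl livers 5, 7 and 9 and 2.92 CPM in the male, against 2.53, 2.68, 1.96 and 2.41 CPM in the LKO livers 3, 4, 12 and 13. All Fl/Fl libraries were above all LKO libraries, and Jag1 fell by 1.13 (± 0.20 SE, edgeR adjusted p = 0.0262). Its call was lost without Fl/Fl 5 (adjusted p = 0.133), Fl/Fl 7 (0.0982), LKO 4 (0.0687), LKO 12 (0.0570) or LKO 13 (0.0756). Gadd45b, a stress gene named after its values were seen, went the other way at log2 0.96 ± 0.37 SE (adjusted p = 0.272; 0.0284 with DESeq2).

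**Figure D4:**
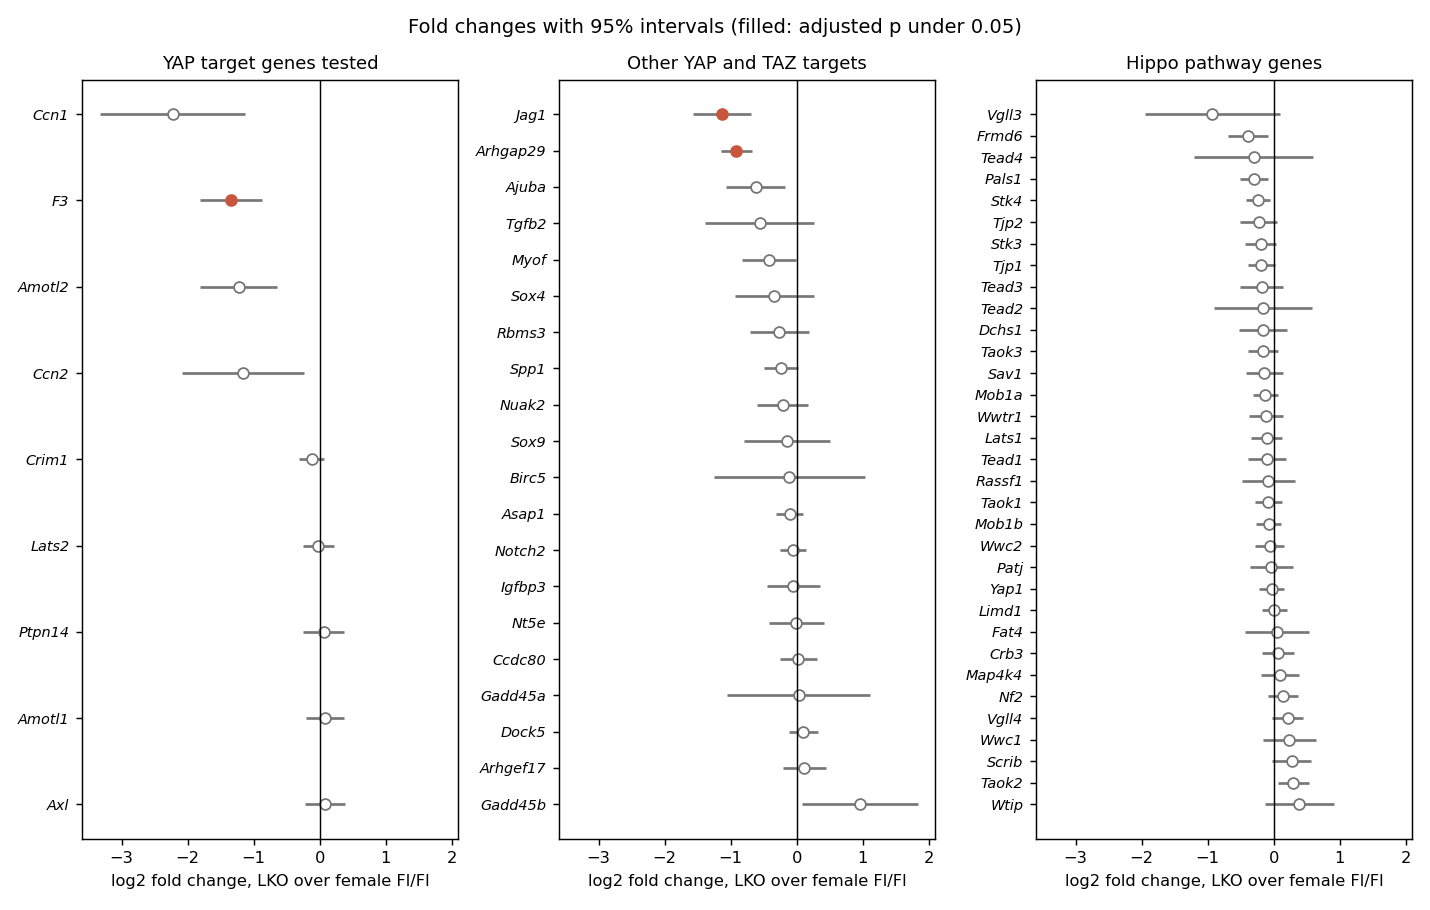
Log2 fold change of LKO over female Fl/Fl (x axis) with its 95% interval (line) for the 9 tested YAP target genes, 20 other YAP and TAZ targets and 33 Hippo pathway genes (y axis, ordered by fold change); filled points have an edgeR adjusted p under 0.05. F3, Jag1 and Arhgap29 are filled, and no Hippo pathway gene is.

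The machinery of the Hippo pathway showed no call. Of 35 pathway genes other than the targets above, 33 were tested with edgeR and 0 passed. Of all genes tested 1.41% passed, too low a share to expect calls in a list of this size. An unadjusted p under 0.05 was found for 4, a smaller share than the 16.1% of all genes tested (median log2 fold change -0.11). Every LKO value lay below every female Fl/Fl value for 4 of the 33, beside 6.22% of all genes tested, and above for 0, beside 8.85%. DESeq2 and limma voom called 0 as well. Yap1 measured 75.7, 67.4 and 71.2 CPM in the female Fl/Fl livers 5, 7 and 9 and 80.7 CPM in the male, against 71.6, 66.1, 67.3 and 74.1 CPM in the LKO livers 3, 4, 12 and 13, so that the genotypes overlapped (log2 fold change -0.03 ± 0.08 SE, adjusted p = 0.891). Wwtr1, which encodes TAZ, had a log2 fold change of -0.12 ± 0.11 SE (adjusted p = 0.667). Among the DNA-binding partners, Tead1 was at -0.11, Tead2 at -0.17, Tead3 at -0.18 and Tead4 at -0.31, with adjusted p-values of 0.592 to 0.861; Tead1 and Tead2 changed sign with no sex term (0.062 and 0.085), as Tead2 did without Fl/Fl 9 (0.26). The TEAD cofactors Vgll3 and Vgll4 were at -0.93 ± 0.46 SE and 0.21 ± 0.11 SE (adjusted p = 0.355 and 0.374). Of the kinases and their adaptors, Stk4 (-0.24 ± 0.08 SE, adjusted p = 0.181) and the membrane scaffold Frmd6 (-0.39 ± 0.14 SE, adjusted p = 0.194) had the smallest p. Of the junction and polarity proteins these were Pals1, listed as Mpp5 (-0.30 ± 0.10 SE, adjusted p = 0.166), and Tjp1, or ZO-1 (-0.19 ± 0.09 SE, adjusted p = 0.354). RNA levels do not show the phosphorylation or location of YAP.

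Paralogs and binding partners of the targets gave 0 calls among 14 tested genes with edgeR, beside 1.41% of all genes tested. Of the 14, 4 had an unadjusted p under 0.05, beside 16.1% of all genes tested (median log2 fold change 0.07). DESeq2 called 1 higher. Gas6, the ligand of Axl, measured 44.8, 52.6 and 48.2 CPM in the female Fl/Fl livers 5, 7 and 9 and 43.8 CPM in the male, against 75.1, 76.6, 66.5 and 57 CPM in the LKO livers 3, 4, 12 and 13. All LKO libraries were above all Fl/Fl libraries (log2 fold change 0.50 ± 0.12 SE, edgeR adjusted p = 0.0620; the share of all tested genes with every LKO value above every female Fl/Fl value was 8.85%). The Axl relative Mertk was at 0.16 ± 0.10 SE and F7, the factor that F3 binds, at 0.18 ± 0.09 SE (adjusted p = 0.488 and 0.355). Amot, the third angiomotin, was at -0.39 ± 0.16 SE, and Ptpn21, the relative of Ptpn14, at -0.18 ± 0.15 SE (adjusted p = 0.257 and 0.594); without single libraries Ptpn21 ranged from -0.31 (without LKO 3) to -0.025 (without Fl/Fl 5). Ccn4, of the family of Ccn1 and Ccn2, was at -0.53 ± 0.18 SE (adjusted p = 0.188).

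Serum response factor and the cytoskeletal genes listed with it mostly did not share the direction of Ccn1, with 11 positive and 2 negative fold changes. Of 13 tested genes 1 rose, 0 fell and 12 did not pass (median log2 fold change 0.31). In edgeR, 4 of the 13 had an unadjusted p under 0.05, beside 16.1% of all genes tested, of which 1.02% were called higher. Vcl, which links integrins to actin, rose by 0.45 (± 0.09 SE, edgeR adjusted p = 0.0372). That call was lost without Fl/Fl 5 (adjusted p = 0.133), Fl/Fl 7 (0.144), LKO 3 (0.0551), LKO 4 (0.130), LKO 12 (0.0570) or LKO 13 (0.0870). The cytoplasmic actin Actg1 was at 0.52 ± 0.14 SE (adjusted p = 0.0966).

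Summed markers of most liver cell types were close between the female groups. A sum mostly follows its most abundant markers, so it can hide a difference in a scarcer one or in a single library. The labels give hepatocytes and cholangiocytes, and all 7 hepatocyte and all 7 cholangiocyte markers were detected in every library, as were those of endothelial cells (7), macrophages (6), stellate cells and fibroblasts (8), mesothelium (4) and lymphocytes (4). The summed cholangiocyte markers ranged from 64.6 to 78.2 CPM in female Fl/Fl and from 53.8 to 64.9 CPM in LKO, with 56.5 CPM in the male library, and 0 of the 7 passed. The summed endothelial markers ranged from 249 to 319 and from 261 to 297 CPM, those of stellate cells and fibroblasts from 163 to 191 and from 146 to 178 CPM, and those of the mesothelium from 5.60 to 8.16 and from 5.69 to 7.62 CPM. Hepatocyte markers summed to 127052 to 133383 CPM in female Fl/Fl, 120889 to 136148 CPM in LKO and 82904 CPM in the male, and macrophage markers to 220 to 316, 237 to 292 and 204 CPM. Each of these female ranges overlapped, that of the cholangiocyte markers by little. The lymphocyte markers did not overlap, at 17.1 to 20.1 CPM in female Fl/Fl and 13.4 to 16.8 CPM in LKO, and 0 of the 4 passed. The part of cell makeup in the levels of the targets was not tested. Of 7 striated muscle markers, 3 were not listed and the other 4 summed to 0.152 to 1.06 CPM, with the highest value in Fl/Fl 7. The part of muscle RNA in the level of the muscle-expressed Ankrd1 was not tested.

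The genes most like the median profile of the 9 tested targets over the 8 libraries were Esyt2, Jak2, Dsg2, Fyco1 and Mfap3, whose centred log2 CPM differed from it by a root mean square of 0.0601 to 0.0696. That profile is nearly flat, from 0.094 in Fl/Fl 9 to -0.10 in LKO 4 among the female libraries with -0.33 in Fl/Fl 10 and the log2 fold changes of the 5 genes were -0.16 to -0.12 (edgeR adjusted p = 0.371 to 0.484). In the authors' deposited table Ankrd1 had a log2 fold change of -2.79 and an adjusted p of 0.0455, Amotl2 -1.01 and 0.0590, F3 -1.10 and 0.0784, Ccn2 -0.996 and 0.157, and Ccn1 -1.87 and 0.317. The deposited fold changes of Ccn1 and F3 match the means of all Fl/Fl livers, the male included, unlike the female contrast used above. The 5 level targets had adjusted p-values of 0.753 to 0.936 in the authors' deposited table, where 0.152% of the 27033 genes with a p-value passed as lower.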

How the data were processed

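Liver RNA was sequenced in 8 libraries prepared with a kit of the NEBNext Ultra type, per the labels' protocols. Per the submitters' processing notes, the tools include STAR, fastp, featureCounts, HTSeq, edgeR, DESeq and DESeq2, with no roles, and the build is mm10. Strand setting and annotation release are not given in the sources used here. In 1 table, the authors deposited whole-number read counts, signal values that equal those counts divided by 1 factor per library (not used further), FPKM values, and their own log2 fold change with p-values. No column was left unmapped (0). Replicate numbers came from the labels, which state no separate litters, so p-values measure the spread between libraries. The closest libraries of a group differed by a chi-square of 35.1 per degree of freedom, so none was a repeat.

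Counts were tested in R 4.3.3 with edgeR 4.0.16: filterByExpr by genotype (16420 genes), TMM, and the robust quasi-likelihood F test with terms for genotype and sex. Two-sided p-values were adjusted by Benjamini-Hochberg over all genes tested, with a threshold of 0.05. Standard errors come from the fold change and F, and 95% intervals use the t distribution. The scripts were tested on simulated data. DESeq2 1.42.0 and limma 3.58.1 were alternatives.

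The members and the lists were chosen with earlier results of these data known, so list medians and counts are descriptions. Genes named are all targets; from each other list those past the threshold (up to 5), filled up to 2 with the smallest p; YAP, TAZ and the TEADs; Amot, Ptpn21, Gas6, Mertk and F7; Fos and Jun; and the 5 genes with the smallest root mean square difference from the targets' median profile among those of at least 1 CPM. Cell type markers are given as summed lists. Gadd45b and Dbp were named after their values were seen. Promoter sequences are RefSeq's for GRCm38.p6.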

Additional observations from a re-analysis of the deposited data

Results flagged for a closer look

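In groups of 4 libraries, a library was singled out where its gap to the nearest other library took more of the group's range than Dixon's critical value for 4. Of 88 groups searched (44 named genes in each genotype, males included), 5 were singled out, and chance gives about 1 in 20. Ccn2 in Fl/Fl 7 stood at 19.8 CPM against 5.87 to 7.82 CPM in the other Fl/Fl libraries. Crim1 in the same library was low, at 18.1 CPM against 19.6 to 19.8 CPM. Junb in LKO 4 was at 63.2 CPM against 43.0 to 44.7 CPM in the other LKO libraries. In the male Fl/Fl 10, Dsg2 was at 120 CPM against 160 to 166 CPM and Fyco1 at 42.2 CPM against 55.4 to 57.5 CPM. Both genes were chosen for likeness to the targets' median profile, which was itself low in Fl/Fl 10 (-0.33). Their low values there follow from that choice and are no separate result.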

How the results depend on the processing

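The count of lower YAP targets (1, F3) was 0 with no sex term, without Fl/Fl 5 and 7 together and at an adjusted p of 0.01, 2 with no filter (Ankrd1 and F3), 2 with limma voom, 3 at an adjusted p of 0.1, 4 with DESeq2 (Amotl2, F3, Ccn2 and Ccn1), and 0 to 3 when single libraries were left out, with 0 higher in each. Other YAP and TAZ targets (2 lower, 0 higher) gave 0 lower with no sex term and without Fl/Fl 5 and 7, 1 lower at an adjusted p of 0.01 and on log2(FPKM + 1), 1 higher with DESeq2, and 0 to 3 lower without single libraries. Hippo pathway genes gave 0 calls in all 20 settings. Immediate early genes (2 lower) gave 0 with no sex term and 9 with DESeq2, and 1 to 6 without single libraries, with 1 higher without Fl/Fl 9, and cytoskeletal genes (1 higher) gave 0 to 2. Calls over all genes moved as well. Apart from the runs without a single replicate, they reached up to 315 lower and 570 higher, beside 65 and 167 in the main fit. A larger count for a list in another setting is therefore no result about that list.

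The median log2 fold change of the targets (-0.12) was -0.19 without Fl/Fl 5 and 7, -0.65 with the 7 female libraries, -0.64 with no filter, and -0.67 to -0.10 without single libraries; Ankrd1 enters in the fits with the larger values, which makes the number of targets even. Genes that missed the threshold changed sign as follows: without Fl/Fl 5 and 7, Amotl1 (-0.064), Axl (-0.19), Vgll3 (0.11), Vgll4 (-0.046) and Dbp (-0.13); with single libraries left out, Yap1 (-0.081 to 0.0093, the latter without Fl/Fl 5), Lats2 (-0.072 to 0.012, without Fl/Fl 7) and Tead2 (-0.40 to 0.26, without Fl/Fl 9); and with no sex term, Tead1 (0.062) and Tead2 (0.085). The cause was not tested. DESeq2 size factors, upper quartile scaling and a stricter filter changed no call among the named genes. No paired analysis was possible because the genotypes share no replicate numbers. At these depths counting error matters for Ankrd1, at 1 to 9 reads in LKO.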
